A study of Mus musculus with 10 samples.

Results

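The long noncoding RNA genes of the mouse autosomes were examined in microglia sorted from brain and in whole brain tissue. Members were chosen by their measured levels. They were the genes that the deposited count table annotates as lncRNA on chromosomes 1 to 19 and whose mean level was 10 counts per 1000000 counts (CPM, a count scaled by the library total) or more over the microglia libraries or over the bulk brain libraries. This gave 247 of the 10532 autosomal lncRNA genes in a table of 56748 genes. The microglia group held 5 samples of 400000 brain cells sorted for CD11b, a surface protein of microglia and other myeloid cells, and the bulk brain group held 5 samples of hemi brains that the labels describe as all brain cells. Every animal was a young male C57BL/6 mouse, a standard inbred strain, with no treatment or engineered allele named. By its title the study is on aggregating synaptic proteins and microglia in aging, and the comparison addresses what RNA microglia hold beside the tissue they come from. Nothing in the labels ties the 5 samples of a group to separate animals. The p-values therefore describe the spread among these samples, part or all of which may be technical.

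Long noncoding RNAs are transcripts that carry no annotated protein-coding frame. Some act as RNA in the nucleus, where they build nuclear bodies or silence imprinted genes in cis, and some bind proteins or microRNAs in the cytoplasm. Others are known mainly for what is cut out of them, since their introns or exons hold small nucleolar RNAs (snoRNAs) or microRNAs (miRNAs), or for the coding gene whose promoter or opposite strand they share. They tend to be more restricted to single tissues and cell types than messenger RNAs are, and brain expresses many of them.

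The markers of microglia, neurons, astrocytes and oligodendrocytes matched the labels of the libraries. The summed level of 6 microglia markers was 25628 to 26809 CPM in microglia libraries and 187 to 213 CPM in bulk brain libraries, and that of 7 neuron markers was 6.32 to 11.0 CPM in microglia and 5592 to 6881 in bulk brain. The sum over 5 oligodendrocyte markers was 83.2 to 164 CPM in microglia and 5472 to 7387 in bulk brain. For 5 astrocyte markers it was 4.81 to 22.4 CPM in microglia and 1955 to 3310 in bulk brain. The groups lay closer for 5 endothelial markers, at 56.7 to 79.5 CPM in microglia and 208 to 304 in bulk brain. Of these 5, 1 was higher in microglia and 4 were lower. Markers of border-associated macrophages, which also carry CD11b, summed to 352 to 474 CPM in microglia and 6.88 to 9.60 in bulk brain. All 12 early response genes, which cells induce within minutes of handling, were higher in microglia, with sums of 18415 to 21755 CPM in microglia and 353 to 586 in bulk brain. Their part in the results was not tested. Library totals were 25087489 to 28514509 counts in microglia and 25845049 to 34709215 in bulk brain. A count of 0 in a single library thus allows a level of up to 0.105 to 0.120 CPM in microglia and 0.0864 to 0.116 in bulk brain. Bulk brain replicates 1 and 2 stood apart from replicates 3 to 5. Of the 134 members at 10 CPM or more in bulk brain, 101 had both of these libraries outside the range of the other 3, 44 above it and 57 below it. The share of all genes with this pattern is not given here, so this and later counts of it describe the members alone. The split was not limited to members. Over genes of the whole table, chi-square per degree of freedom was 106 to 278 between replicates 1 or 2 and replicates 3 to 5. Among replicates 3 to 5 it was 5.45 to 7.76.

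The levels chose the members. Of the 247 genes, 113 were at 10 CPM or more in microglia alone, 88 in bulk brain alone and 46 in both groups. A member of the first 2 classes lies under 10 CPM in the other group by the rule, so its difference is given as a description with no test. Just inside the minimum stood Gm49172, at 10.004 CPM in microglia and 4.57 in bulk brain, and 1700058P15Rik, at 10.011 and 0.403 CPM. Just outside it stood Gm14023, at 9.99 CPM in microglia and 0.300 in bulk brain, and Gm48226, at 6.196 and 9.97 CPM. Within the classes, the other group was under 1 CPM for 49 of the 113 genes of the microglia class and for 55 of the 88 genes of the bulk brain class, and at 5 CPM or more for 27 and 17 of them. Most members have no established name: 199 of 247 carry a predicted, clone-based, expressed-sequence or identifier-only label, 99 of 113 in the microglia class, 71 of 88 in the bulk brain class and 29 of 46 in both groups.

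**Figure D1:**
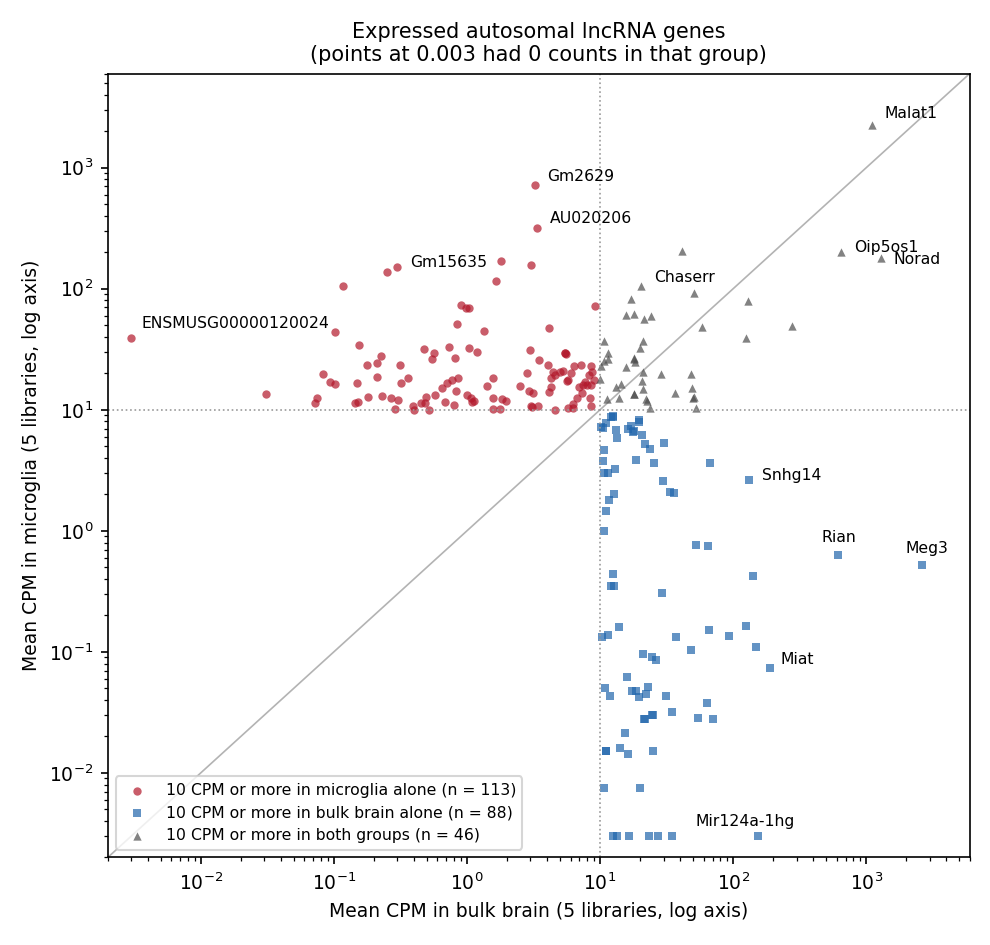
Mean level of the 247 members in microglia (vertical axis) and in bulk brain (horizontal axis), in CPM on log axes, with 1 point per gene and dotted lines at 10 CPM. Genes with 0 counts in a group are drawn at the edge. Malat1 is high in both groups, the 113 genes of the microglia class fill the upper left and the 88 genes of the bulk brain class the lower right, where the empty lower left is fixed by the rule.

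Long noncoding RNA took a smaller part of the library in microglia than in tissue. Over all 10532 autosomal lncRNA genes, which no level had selected, the share of counts was 1.15% ± 0.0395 in microglia and 1.44% ± 0.183 in bulk brain (n = 5 each, SD), a difference of -0.29 percentage points (two-sided p = 0.0079 by exact permutation of the labels, the lowest value that 252 splits can give). The 5 microglia shares lay between 1.09% and 1.19% and the 5 bulk brain shares between 1.22% and 1.58%, so the groups did not overlap. Without Malat1 the shares were 0.919% in microglia and 1.33% in bulk brain, and without the 4312 genes that overlap a coding gene they were 0.714% and 1.06%. In tissue, fewer cells that hold a transcript and less of it per cell cannot be told apart.

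A few RNAs made up much of that share. The 247 members held 73.4% of the autosomal lncRNA level in microglia and 75.9% in bulk brain. Malat1 alone held 27.0% of the members' summed CPM in microglia and 10.2% in bulk brain, where Meg3 held 24.2%. Set per kilobase of annotated length (RPKM), Malat1 led in microglia at 325 RPKM, followed by Gm2629 at 144, Gm50035 at 129, ENSMUSG00000120800 at 128 and AU020206 at 99.7 RPKM. In bulk brain the leading genes per length were Norad at 263 RPKM, Malat1 at 159 and Meg3 at 139 RPKM. Malat1 was among the 3 leading members per length in both groups, and the level of ENSMUSG00000120800 rests on an annotated length of 129 bases. ENSMUSG00000120800 also overlaps the coding gene Mylip on the same strand, at 588 CPM in microglia and 16.3 in bulk brain. Reads from bases that these overlapping genes share cannot be told apart.

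Of the 46 members at 10 CPM or more in both groups, 22 (47.8%) rose and 14 (30.4%) fell in microglia (adjusted p under 0.05 in edgeR's quasi-likelihood fit, with Benjamini-Hochberg adjustment over 18969 genes), 36 (78.3%) in all. Among all 7481 genes at that level in both groups, 47.0% were higher and 29.7% lower (76.7% together), so the members' shares were near the background. Of all genes tested, 37.2% were higher and 43.9% lower (81.0% together). The levels of the 2 groups did not overlap for 32 of the 46 (69.6%), against 69.5% of the 7481 genes and 74.3% of all genes tested. The members' median log2 difference, microglia minus bulk brain, was 0.35, with a range of -2.67 to 2.54, and that of all genes tested was -0.14. The log2 differences use trimmed-mean scaling of the library totals. With median-of-ratios size factors or library size alone the median of all genes moved to -0.31 or -0.33, and the 46 members split into 19 higher and 18 lower under both. The calls over all 18969 genes moved too. They were 7048 higher and 8320 lower with trimmed-mean scaling, 6449 and 8853 with median-of-ratios factors, and 6394 and 8883 with library size alone.

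**Figure D2:**
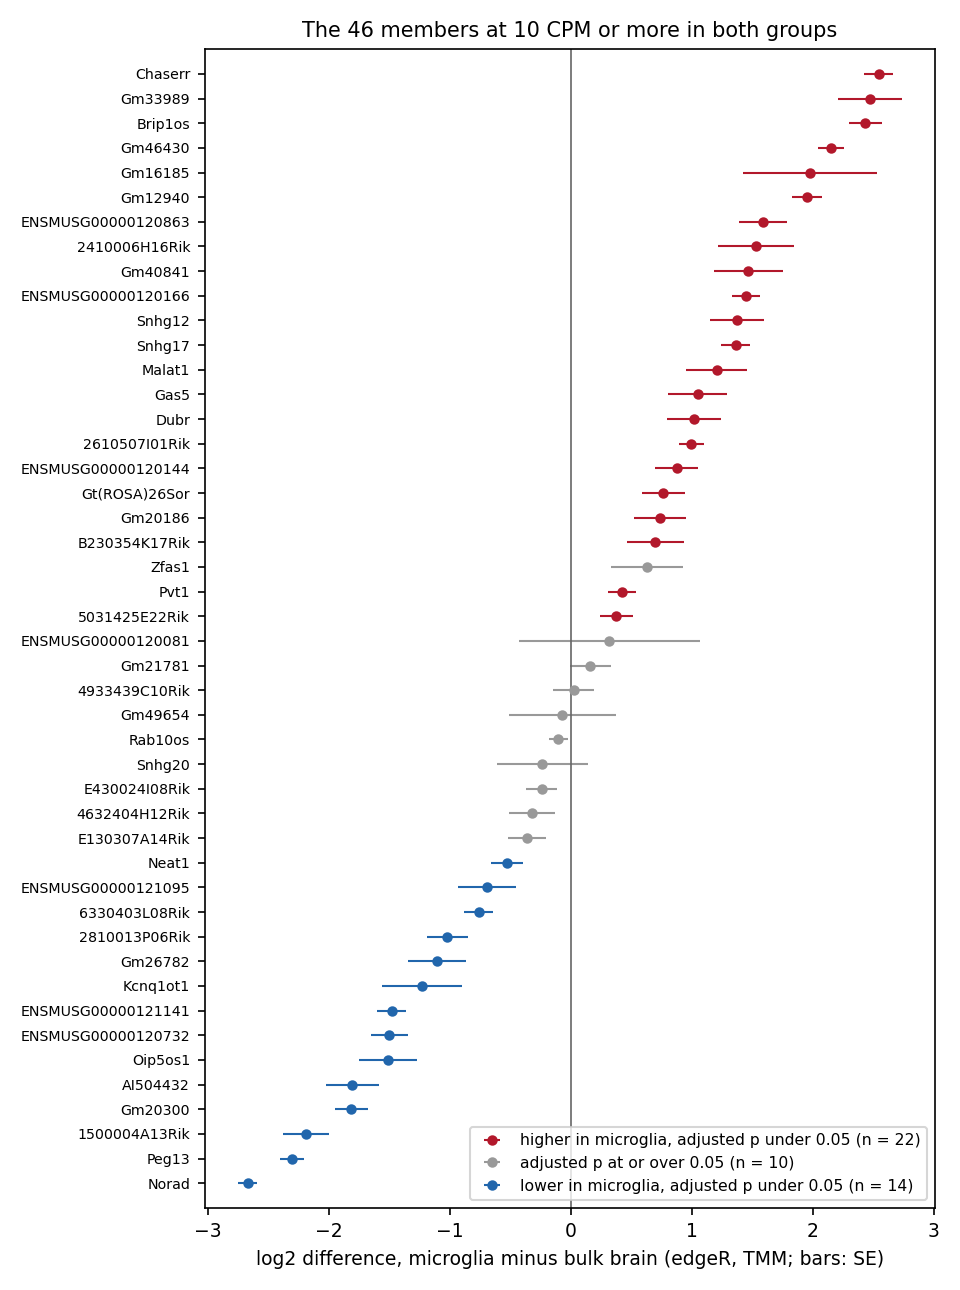
The log2 difference, microglia minus bulk brain, of each of the 46 members at 10 CPM or more in both groups, with its SE (bars), from the edgeR fit over all genes. The order runs from Chaserr at 2.54 to Norad at -2.67, and 10 genes near 0 did not pass the threshold.

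The RNAs known from nuclear bodies or from nuclear retention moved in different directions. Malat1 (ENSMUSG00000092341, chromosome 19, 5845717 to 5852704, minus strand, GRCm39), an abundant RNA of nuclear speckles, was at 2594, 2008, 2251, 2441 and 2048 CPM in microglia replicates 1 to 5, against 686, 617, 1444, 1413 and 1401 CPM in bulk brain replicates 1 to 5. Every microglia library lay above every bulk brain library, and bulk brain replicates 1 and 2 lay far below the other 3. The log2 difference was 1.21 ± 0.25 (SE; edgeR adjusted p = 8.2e-04), and 0.69 against bulk brain replicates 3 to 5 alone (adjusted p = 3.2e-06). Neat1 (chromosome 19, 5874736 to 5895898, minus strand), the scaffold of paraspeckles and a neighbour of Malat1, was at 77.5, 74.5, 63.8, 85.4 and 95.6 CPM in microglia and at 156, 153, 116, 115 and 110.1 in bulk brain. It was thus lower in every microglia library while Malat1 was higher (log2 difference -0.53 with an SE of 0.13, edgeR adjusted p = 0.0032). Miat, a nuclear RNA best known from neurons, stood at 0 to 0.210 CPM in the microglia libraries and at 175 to 209 CPM in bulk brain. Of 6 listed RNAs of this kind, 5 are annotated as autosomal lncRNA in the count table, and all 5 were members. Malat1 was higher and Neat1 and Kcnq1ot1 were lower among the 3 members in both groups, and Meg3 and Miat were of the bulk brain class. The other listed RNA, Tug1, is annotated as protein-coding and thus was no member. It was higher, at 206 CPM in microglia and 104 in bulk brain (log2 difference 1.17). Both bulk brain replicates 1 and 2 lay below replicates 3 to 5 for 4 of the 5 members and above them for 1.

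**Figure D3:**
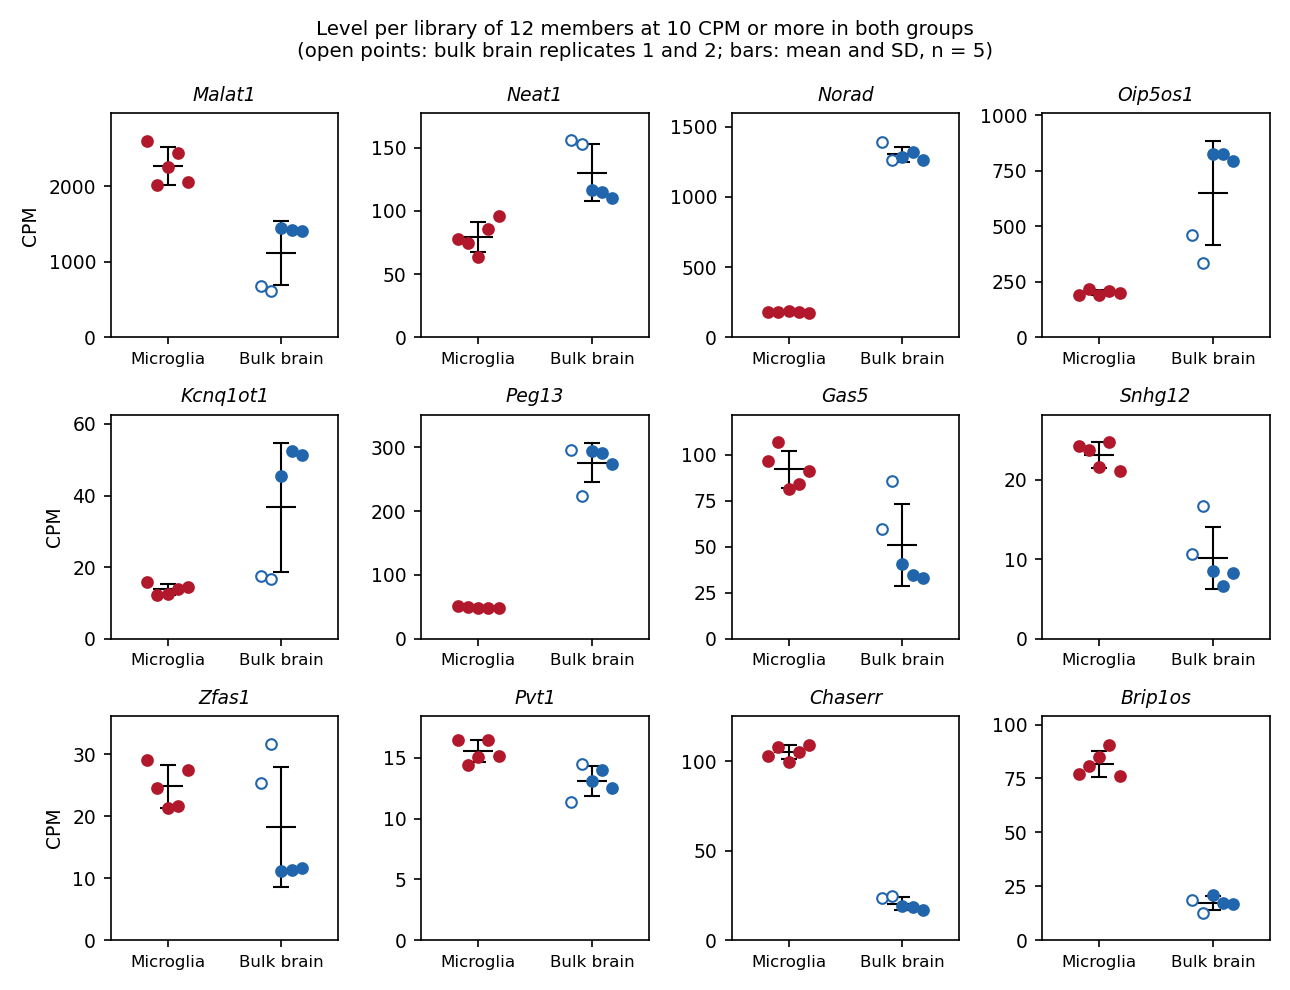
Level per library, in CPM, of 12 members at 10 CPM or more in both groups, with microglia left and bulk brain right in each panel; bars are the mean and SD of 5 libraries and open points are bulk brain replicates 1 and 2. Malat1, Snhg12, Chaserr and Brip1os are higher in every microglia library, Neat1, Norad, Oip5os1, Kcnq1ot1 and Peg13 lower in every one, and the groups overlap for Gas5, Zfas1 and Pvt1.

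Noncoding RNAs of imprinted domains, which are made from 1 parental allele, were members of the bulk brain class or of both groups. Meg3, Rian, Mirg and Snhg14 were of the bulk brain class. The rule set the side of these genes, so their levels are a description. Meg3, Rian and Mirg come from the maternal allele of the Dlk1-Dio3 domain on chromosome 12, where Meg3 spans 109506879 to 109538165 and Mirg 109696198 to 109715894 on the plus strand. Meg3 was at 0.225, 0.281, 0.793, 1.09 and 0.199 CPM in microglia, against 1839, 1766, 3100.4, 3199 and 3319 CPM in bulk brain. Rian, which holds 13 snoRNA genes and 4 miRNA genes, was at 0.144 to 1.30 CPM in microglia and 522 to 647 in bulk brain. Mirg, which holds 14 miRNA genes, had its only microglia counts in replicate 1, at 0.150 CPM, and 19.2 to 33.9 CPM in bulk brain. The RNAs of this domain were thus at or near 0 in all microglia libraries.

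Snhg14, the long paternally expressed transcript that runs from the Prader-Willi region into the antisense strand of Ube3a, holds 208 annotated snoRNA genes. It was at 2.85, 2.14, 1.98, 3.38 and 2.75 CPM in microglia, against 68.9, 46.7, 169.9, 190.3 and 184 CPM in bulk brain. Ube3a itself, a ubiquitin ligase gene, was at 119 CPM in microglia and 138 in bulk brain (log2 difference -0.03, edgeR adjusted p = 0.92). Bulk brain replicates 1 and 2 again held the lowest tissue values of Snhg14.

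Peg13 and Kcnq1ot1 were the imprinted members at 10 CPM or more in both groups, and both were lower in microglia. Peg13 (chromosome 15, 72677449 to 72682173, minus strand), which lies within Trappc9, was at 51.4, 50.5, 48.6, 47.7 and 48.0 CPM in microglia and at 295, 223, 294, 292 and 275 in bulk brain (log2 difference -2.30 with an SE of 0.10, edgeR adjusted p = 1.1e-09). Trappc9, a vesicle tethering gene on the same strand, fell less, to 40.4 CPM in microglia against 85.9 CPM in bulk brain (log2 difference -0.90, edgeR adjusted p = 1.3e-06), and reads of the shared interval may be counted for either gene. Kcnq1ot1 (chromosome 7, 142757195 to 142850286, minus strand), which silences its neighbours on the paternal chromosome, was at 15.96, 12.3, 12.5, 13.9 and 14.6 CPM in microglia and at 17.5, 16.8, 45.5, 52.3 and 51.4 in bulk brain. The groups did not overlap, but bulk brain replicates 1 and 2 lay close above the highest microglia library and far below the other 3 tissue libraries. Its log2 difference was -1.23 ± 0.33 (SE, edgeR adjusted p = 0.0045), and -1.83 against bulk brain replicates 3 to 5 alone. Of 9 listed imprinted noncoding genes in the table, 6 were members; H19, Airn and Gm32061 were under the minimum, and Airn stood at 0.107 CPM in microglia and 5.04 in bulk brain.

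Members that hold miRNA genes were mostly of the bulk brain class. By coordinates, 24 members held 64 miRNA genes. Of these members, 6 were in the microglia class, 17 in the bulk brain class and 1, Snhg20, in both groups. Of all 247 members, 113 were in the microglia class, 88 in the bulk brain class and 46 in both groups. The rule set the side of every host but Snhg20, so these counts are a description. MicroRNAs pair with messenger RNAs mainly through bases 2 to 8, the seed. Mature sequences from hosts of each class are thus given with the seed in capitals (RefSeq, GRCm38.p6, 5′ to 3′). The libraries were selected for poly-A RNA and count host transcripts; mature miRNA levels were not analysed here.

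The miRNAs carried by members of the microglia class include those of Mir142hg, Dleu2 and Mir17hg.
mmu-miR-142a-5p: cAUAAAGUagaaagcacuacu
mmu-miR-142a-3p: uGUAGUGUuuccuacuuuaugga
mmu-miR-15a-5p: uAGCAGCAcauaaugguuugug
mmu-miR-16-5p: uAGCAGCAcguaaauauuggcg
mmu-miR-17-5p: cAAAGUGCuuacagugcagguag
mmu-miR-20a-5p: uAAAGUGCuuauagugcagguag
mmu-miR-19a-3p: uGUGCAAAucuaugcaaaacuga
mmu-miR-19b-3p: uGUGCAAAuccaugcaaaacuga
mmu-miR-92a-3p: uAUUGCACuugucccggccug

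Mir142hg (chromosome 11, 87646399 to 87648102, plus strand) is the host of miR-142, a miRNA of blood-derived cells. It was at 22.1, 19.1, 13.1, 20.2 and 16.9 CPM in microglia, against 0.481, 0.673, 0.155, 0.251 and 0.230 CPM in bulk brain. The 6 listed markers of other leukocytes summed to 28.2 to 38.3 CPM in microglia and 0.490 to 1.39 in bulk brain, with 3 of the 6 higher, and their part in the level of Mir142hg was not tested. Dleu2 (chromosome 14, 61840265 to 61919822, minus strand) holds Mir15a and Mir16-1, whose products share the seed AGCAGCA above and are known to restrain the cell cycle. It was at 77.4, 72.0, 71.1, 79.0 and 60.9 CPM in microglia, against 6.73, 8.38, 10.1, 10.3 and 10.4 CPM in bulk brain. For Mir142hg and Dleu2 every microglia library lay above every bulk brain library. Mir17hg, the host of the miR-17 to miR-92 cluster, which promotes proliferation, stood at 8.04 to 11.9 CPM in microglia and 0.251 to 0.812 in bulk brain; its miR-17-5p and miR-20a-5p share the seed AAAGUGC, and its miR-19a-3p and miR-19b-3p the seed GUGCAAA. Mir155hg, the host of the inflammatory miR-155, was not a member, at 0.0920 CPM in microglia and 0.0881 in bulk brain.

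The miRNAs carried by members of the bulk brain class include those of the miR-9 hosts, A330023F24Rik and Mir22hg.
mmu-miR-9-5p: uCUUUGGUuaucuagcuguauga
mmu-miR-29b-3p: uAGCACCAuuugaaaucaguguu
mmu-miR-29c-3p: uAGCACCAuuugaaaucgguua
mmu-miR-22-3p: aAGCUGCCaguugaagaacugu

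Mir124a-1hg and Mir124-2hg are hosts of miR-124, the most abundant miRNA family of neurons. Mir124a-1hg (chromosome 14, 64824744 to 64831410, plus strand) had 0 counts in the 5 microglia libraries and was at 153, 126, 159, 164 and 171 CPM in bulk brain, which puts microglia at least 6930-fold lower with a floor set at 3 counts for the whole group. Mir124-2hg was at 0 to 0.120 CPM in microglia and 53.8 to 69.1 in bulk brain. All 3 genes of miR-9, which is made in neural progenitors and neurons, lie in members, and all 3 give the same miR-9-5p shown above. Gm3764, which holds Mir9-1, was at 0, 0.140, 0, 0.113 and 0.558 CPM in microglia and at 117, 141, 118, 121 and 123 in bulk brain. C130071C03Rik, which holds Mir9-2, stood at 0 to 0.361 CPM in microglia and 34.8 to 53.5 in bulk brain. Mir9-3hg stood at 0 to 0.279 CPM in microglia and 23.4 to 32.6 in bulk brain. None of the 5 hosts of miR-124 and miR-9 reached 1 CPM in any microglia library.

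A330023F24Rik, which holds Mir29b-2 and Mir29c with their shared seed AGCACCA, was at 0.596 to 0.997 CPM in microglia and at 33.0, 11.4, 76.1, 65.8 and 74.7 in bulk brain, where replicates 1 and 2 were the lowest. Mir22hg was the host of the bulk brain class closest to the other group, at 5.30 to 7.97 CPM in microglia and 14.3 to 23.6 in bulk brain, with no overlap. A230057D06Rik, which holds 11 miRNA genes, Mir344 and others of that family among them, had 0 counts in the microglia libraries and stood at 12.6 to 31.0 CPM in bulk brain, which puts microglia at least 1050.4-fold lower.

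A pair of hosts with like miRNA content fell into opposite classes. Mir99ahg and Mir100hg each hold 1 gene of the miR-99/100 family, 1 of the let-7 family and 1 of miR-125b. The miR-125b-5p from both is the same sequence, and miR-99a-5p and miR-100-5p share the seed ACCCGUA.
mmu-miR-99a-5p: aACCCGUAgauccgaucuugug
mmu-miR-100-5p: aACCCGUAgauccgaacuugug
mmu-miR-125b-5p: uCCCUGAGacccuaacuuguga
mmu-let-7c-5p: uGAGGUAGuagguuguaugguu

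Counted from 1 at the 5′ end, miR-99a-5p and miR-100-5p differ at 1 of 22 bases, U16A (miR-99a base first). Mir99ahg (chromosome 16, 77033184 to 77570315, plus strand) was at 19.2, 21.4, 18.3, 23.1 and 19.2 CPM in microglia, against 7.09, 9.54, 4.29, 4.95 and 4.44 CPM in bulk brain. Mir100hg (chromosome 9, 41238373 to 41628290, plus strand) was at 0.300, 0.245, 0.216, 0 and 0 CPM in microglia, against 57.0, 51.7, 70.3, 76.8 and 75.4 CPM in bulk brain. The 2 transcripts thus had opposite orders, with no overlap of the groups in either. Few reads were counted at the miRNA genes within Mir99ahg. Mir99a had 1 count in microglia and 23 in bulk brain, Mirlet7c-1 had 0 and 4, and Mir125b-2 had 0 in both groups. These counts did not follow the order of the host, and the cause was not tested.

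**Figure D4:**
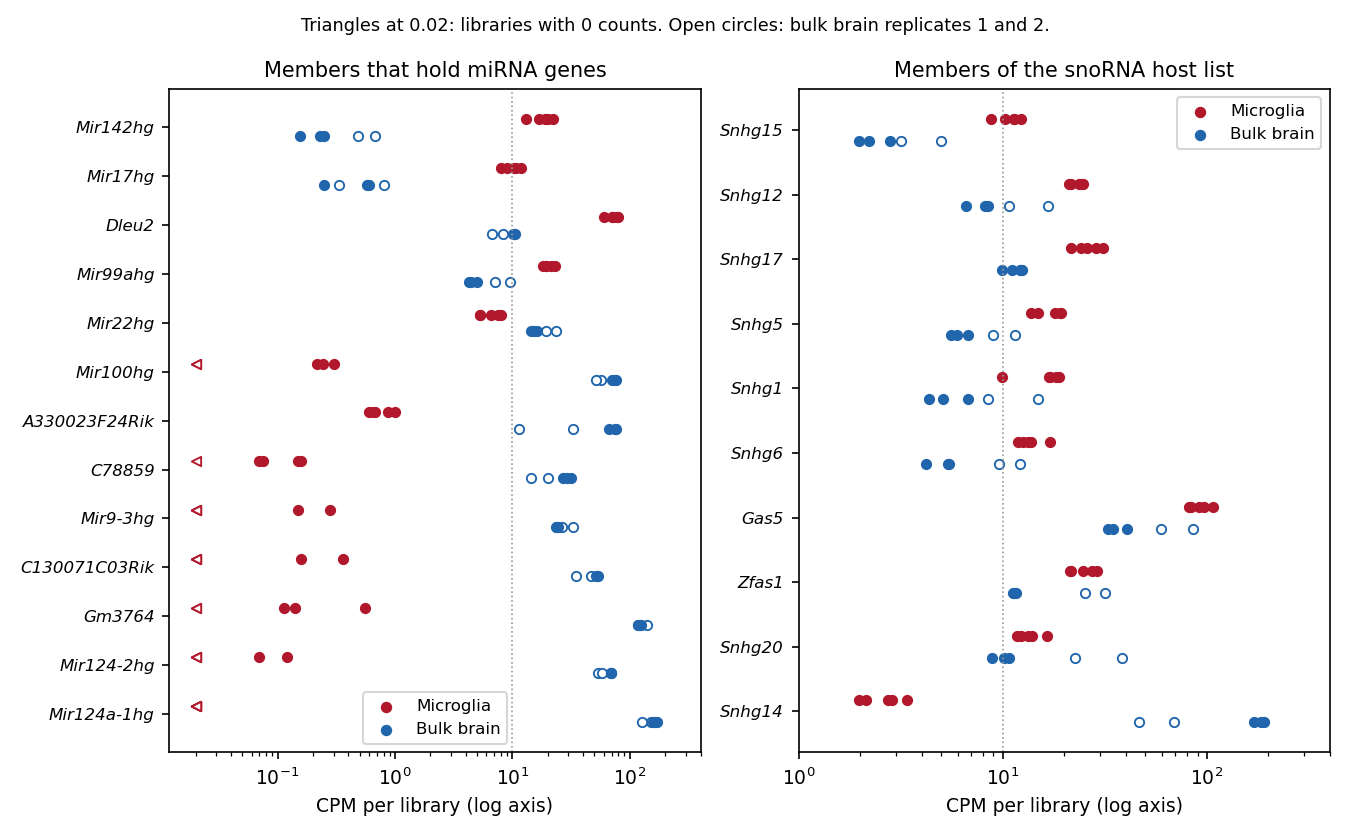
CPM per library, on log axes, of 13 members that hold miRNA genes (left) and of the 10 members of the snoRNA host list (right), with microglia above bulk brain for each gene; triangles at the left edge are libraries with 0 counts and open circles are bulk brain replicates 1 and 2. Mir142hg, Mir17hg, Dleu2 and Mir99ahg are higher in microglia, the hosts of miR-9 and miR-124 are under 1 CPM there, and in the right panel the open circles lie above the other bulk brain points for 8 of the 10 genes.

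Host genes of snoRNAs, small RNAs that mostly guide modification of ribosomal RNA, were found in all 3 classes. Of 19 listed snoRNA host genes in the table, 10 were members: Gas5, Snhg12, Snhg17, Zfas1 and Snhg20 in both groups, Snhg1, Snhg5, Snhg6 and Snhg15 in the microglia class, and Snhg14 in the bulk brain class. The rule set the side of the 5 that entered through 1 group, so nothing is read from their direction. Among the 5 in both groups, 3 were higher, none was lower and 2 did not pass the threshold. Of the 7481 genes at that level in both groups 47.0% were higher and 29.7% lower, and with 5 genes the list's count is not set apart from that background. Gas5 (ENSMUSG00000053332, chromosome 1, 160861992 to 160866116, plus strand), which holds 10 snoRNA genes and accumulates when growth stops, was at 96.6, 107, 81.4, 83.8 and 91.3 CPM in microglia and at 59.8, 85.7, 40.6, 34.6 and 32.8 in bulk brain. Bulk brain replicate 2 lay inside the microglia range, and the log2 difference was 1.05 ± 0.25 (SE, edgeR adjusted p = 0.0019). Gas5 overlaps Zbtb37, a zinc finger gene on the opposite strand that was also higher (163 CPM in microglia, 33.8 CPM in bulk brain, edgeR adjusted p = 0.0035).

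Snhg12 was at 24.2, 23.7, 21.6, 24.7 and 21.1 CPM in microglia, against 10.7, 16.7, 8.47, 6.61 and 8.21 CPM in bulk brain (log2 difference 1.37 with an SE of 0.22, edgeR adjusted p = 1.2e-04). Snhg17 was at 25.8, 21.7, 24.2, 28.5 and 30.8 CPM in microglia, against 12.4, 12.1, 11.1, 12.3 and 9.91 CPM in bulk brain (1.36 ± 0.12 SE, edgeR adjusted p = 6.4e-07). Neither gene's groups overlapped, and bulk brain replicate 2 held the highest tissue value of Snhg12. Zfas1, whose annotated start lies 81 bases from that of the coding gene Znfx1 on the opposite strand with an overlap, was at 29.0, 24.6, 21.3, 21.6 and 27.4 CPM in microglia and at 25.4, 31.7, 11.2, 11.3 and 11.6 in bulk brain. Its groups overlapped through bulk brain replicates 1 and 2, and it did not pass the threshold (log2 difference 0.63 with an SE of 0.30, edgeR adjusted p = 0.071). Against bulk brain replicates 3 to 5 alone it passed, at 1.13 (adjusted p = 1.1e-06). Snhg20 was at 12.2, 13.9, 13.3, 11.8 and 16.4 CPM in microglia and at 22.6, 38.2, 10.1, 8.83 and 10.7 in bulk brain, with a log2 difference of -0.23 ± 0.37 (SE, edgeR adjusted p = 0.58). Against bulk brain replicates 3 to 5 alone the direction turned, to 0.47 (adjusted p = 0.0048). In 8 of the 10 snoRNA hosts both bulk brain replicates 1 and 2 lay above replicates 3 to 5, and in Snhg14 both lay below. Without the share over all genes this count is not read as a trait of snoRNA hosts. What sets these 2 libraries apart was not tested.

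The 4 hosts of the microglia class stood between 8.76 and 19.2 CPM in microglia libraries. Snhg1, which holds 8 snoRNA genes, was at 18.8, 16.9, 9.88, 17.03 and 18.2 CPM in microglia and at 8.51, 14.95, 4.37, 6.77 and 5.07 in bulk brain, where replicate 2 lay inside the microglia range. Snhg15 was at 8.76 to 12.3 CPM in microglia and 1.97 to 4.98 in bulk brain, with no overlap. Beyond the list, 2410006H16Rik, which holds 3 snoRNA genes, was higher at 26.8 to 33.5 CPM in microglia and 6.96 to 22.9 in bulk brain (log2 difference 1.53 with an SE of 0.31, edgeR adjusted p = 7.3e-04). Snhg8, Dancr and Epb41l4aos were among the 9 listed hosts under the minimum in both groups.

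Many snoRNA hosts belong to the genes whose transcripts start with a run of pyrimidines, a feature they share with ribosomal protein genes. The 60 bases around the annotated start, with a run of 5 or more pyrimidines (C or T) across the start in capitals, are given for the 5 hosts at 10 CPM or more in both groups (RefSeq, GRCm38.p6).
Gas5 (chr1:161035136-161035195, plus strand): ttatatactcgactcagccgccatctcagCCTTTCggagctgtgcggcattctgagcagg
Snhg12 (chr4:132308648-132308707, plus strand): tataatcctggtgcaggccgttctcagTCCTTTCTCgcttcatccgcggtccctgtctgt
Snhg17 (chr2:158361480-158361539, minus strand): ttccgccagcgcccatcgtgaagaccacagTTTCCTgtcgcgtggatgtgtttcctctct
Zfas1 (chr2:167062904-167062963, plus strand): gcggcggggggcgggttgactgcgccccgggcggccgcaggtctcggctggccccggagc
Snhg20 (chr11:117076753-117076812, plus strand): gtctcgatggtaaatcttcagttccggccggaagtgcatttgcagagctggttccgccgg

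Such a run crossed the start in the windows of Gas5, Snhg12 and Snhg17 and not in those of Zfas1 and Snhg20. It was present in 3 of the 11 start windows of snoRNA hosts (27.3%), some genes having more than 1, and in 18.7% of all 32851 windows of the genome. The share was 24.1% for the windows of members in both groups, 20% for the microglia class and 30.5% for the bulk brain class. These counts describe letters and show no site in use.

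Of 19 listed long noncoding RNAs known from neural tissue and annotated as autosomal lncRNA, 10 were members and 9 were under the minimum in both groups. Of the 10, 8 were in the bulk brain class, with Peg13 in both groups and Dlx1as in the microglia class. The rule set the side of all but Peg13, so these counts are a description. Sox2ot, which spans the stem cell factor gene Sox2, averaged 0.132 CPM in microglia and 37.0 in bulk brain, and Sox2 itself was at 0.132 and 35.8 CPM (log2 difference -7.84). Pantr1, which lies beside the neural transcription factor gene Pou3f3, had 2 counts over the 5 microglia libraries and was at 25.5, 45.8, 17.8, 18.4 and 17.5 CPM in bulk brain. The ratio of bulk brain over microglia was 1661, with a 95% counting interval of 459.8 to 13714. Pou3f3 averaged 0.366 CPM in microglia and 106 in bulk brain. These pairs thus lay low in microglia together. Reads from bases that overlapping genes share cannot be told apart in libraries whose second strand was not marked.

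Several members of the bulk brain class have no functional name. ENSMUSG00000120976, downstream of the potassium channel gene Kcna1, averaged 0.110 CPM in microglia and was at 171, 173, 139, 133 and 133 CPM in bulk brain. ENSMUSG00000121179, opposite the coat protein gene Copg2, averaged 0.425 CPM in microglia and was at 238, 159, 127, 98.9 and 76.9 CPM in bulk brain. Both had their higher tissue values in replicates 1 and 2. With 0 counts in every microglia library, C030017B01Rik averaged 34.8 CPM, A830036E02Rik 27.2 CPM and 3300002P13Rik 16.4 CPM in bulk brain. Microglia were at least 1560-fold, 1220-fold and 735-fold lower in these genes, in that order, with the floor set at 3 counts for the whole group.

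Dlx1as is annotated as antisense to the interneuron transcription factor gene Dlx1, yet it averaged 15.4 CPM in microglia and 6.89 in bulk brain. Dlx1 had 0 counts in microglia and averaged 20.5 CPM in bulk brain. The annotated Dlx1as also overlaps Metap1d, a mitochondrial aminopeptidase gene, which was higher at 66.3 CPM in microglia and 22.0 in bulk brain (log2 difference 1.77). The label of Dlx1as as a neural RNA thus went against its level. Reads from bases that Dlx1as and Metap1d share cannot be told apart here. Overlap is of whole gene spans, and the part of such reads in the level of Dlx1as was not tested.

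The genes of the microglia class with the highest CPM carry no functional name. Gm2629 (ENSMUSG00000117613, chromosome 18, 15327780 to 15409293, plus strand) was at 762, 737, 677, 671 and 773 CPM in microglia, against 3.43, 3.94, 2.94, 3.10 and 2.82 CPM in bulk brain. Per length, Malat1 was the member above it in microglia. Gm50035 lies within the span of Gm2629 on the opposite strand and was at 151, 142, 132, 133 and 125 CPM in microglia, against 0.120 to 0.461 CPM in bulk brain. AU020206 (chromosome 7, 75418786 to 75431869, minus strand), listed here as a myeloid lncRNA, was at 310.4, 312, 309, 309 and 361 CPM in microglia, against 3.76, 4.04, 3.87, 2.66 and 2.51 CPM in bulk brain. Gm10790 was at 137 to 195 CPM in microglia and 1.096 to 2.51 in bulk brain. E230029C05Rik was at 147 to 165 CPM in microglia and 1.498 to 3.95 in bulk brain, and lies opposite Eed, a Polycomb subunit gene that was higher at 83.3 and 17.3 CPM (log2 difference 2.45, edgeR adjusted p = 2.9e-09). Among the genes with the largest log2 differences, Gm30329 was at 39.0 to 45.8 CPM in microglia and 0 to 0.271 in bulk brain, and Gm13291 at 12.9 to 14.3 CPM in microglia and 0 to 0.0917 in bulk brain. The tissue values were low but above the floor in every library of Gm2629, AU020206 and Gm10790.

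Of 16 listed myeloid and immune lncRNAs in the table, 6 were members: AU020206, Dleu2, Mir142hg and Gm26532 in the microglia class, Neat1 in both groups and lower, and Mir22hg in the bulk brain class. Gm26532 averaged 32.5 CPM in microglia and 1.04 in bulk brain. Morrbid, which controls survival of short-lived myeloid cells, was under the minimum at 2.71 CPM in microglia and 0.244 in bulk brain. The list thus held members that stood higher and members that stood lower in microglia.

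In the microglia class, 50 members overlapped coding genes on the opposite strand in 62 pairs, in which the coding gene was higher in 42, lower in 8, not called in 6 and too low to test in 6. In 17 pairs that overlapped on the same strand it was higher in 7, lower in 4, not called in 2 and too low to test in 4. Of all 15029 coding genes tested, 35.9% were higher and 47.5% lower, but reads from bases that overlapping genes share cannot be told apart. The pairs described next were chosen after their values were seen. ENSMUSG00000120024 (39.8, 32.5, 42.4, 49.1 and 32.3 CPM in microglia, 0 counts in every bulk brain library, at least 2071-fold higher) lies opposite Ccl3, a chemokine gene at 168 CPM in microglia and 0.0193 in bulk brain (log2 difference 12.99, edgeR adjusted p = 1.7e-11). Gm15635, at 144 to 155 CPM in microglia and 0 to 0.658 in bulk brain, lies opposite Slco2b1, a transporter gene at 1470.0 and 12.3 CPM (7.08, edgeR adjusted p = 2.8e-12). ENSMUSG00000120400, at 16.6 CPM in microglia and 0.703 in bulk brain, lies opposite Sall1, a transcription factor gene that maintains microglial identity, at 1309 and 33.6 CPM (edgeR adjusted p = 2.6e-11). In all 3 the member and the coding gene stood higher in microglia together.

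ENSMUSG00000121059, at 26.2 CPM in microglia and 0.543 in bulk brain, overlaps Tlr4, the receptor gene for bacterial lipopolysaccharide, on the same strand (162 CPM in microglia and 1.85 in bulk brain, log2 difference 6.64, edgeR adjusted p = 3.6e-08). Adap2os was at 34.6 ± 1.04 CPM in microglia and 0.155 ± 0.123 in bulk brain (n = 5 each, SD), and Adap2, a GTPase-activating protein gene on the opposite strand, at 338 and 2.17 CPM (7.47). Plxna4os1 differed from these pairs, at 11.98 CPM in microglia and 0.302 in bulk brain, while Plxna4, a semaphorin receptor gene, was at 126 and 128 CPM (0.15). In other pairs the signs were opposite. 2610203C22Rik stood at 25.02 to 33.4 CPM in microglia and 0.581 to 2.04 in bulk brain, and Vxn on the opposite strand at 3.40 and 216 CPM (-5.81, edgeR adjusted p = 9.9e-12). 1300002E11Rik averaged 19.4 CPM in microglia and 8.25 in bulk brain, and the kinase gene Map3k13, on the same strand, 0.325 and 40.9 CPM (-6.77, edgeR adjusted p = 8.8e-09).

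Overlap with coding genes differed in frequency among the classes. Of the 247 members, 113 (45.7%) overlapped a coding gene on either strand, against 40.9% of all autosomal lncRNA genes. The share was 56.6% in the microglia class (64 of 113), 36.4% in the bulk brain class (32 of 88) and 37.0% in both groups (17 of 46). The microglia class also had the shortest annotated transcripts, with a median length of 2652 bases, against 4546.5 bases in the bulk brain class and 5545.5 bases in both groups. These counts were not tested, since the classes were cut from the levels.

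Coding genes that start close by on the opposite strand (divergent partners, within 1000 bases) were not chosen by their own level and were tested in the same edgeR fit. Where a partner overlaps its member, reads from shared bases may enter both levels. The levels of the members chose the pairs and their classes, so the counts of partners are a description. The members had 58 such pairs, 22 with an overlap. Of the partners, 32 were higher and 22 lower in microglia, 2 did not pass the threshold and 2 were too low to test, while 35.9% of all 15029 coding genes tested were higher and 47.5% lower (83.4% together). Partners of the microglia class were higher in 18 of 19 pairs, with a median log2 difference of 2.07. Partners of the bulk brain class were lower in 19 of 27 pairs and higher in 6, with a median of -5.12. Those of members in both groups were higher in 8 of 12 and lower in 2, with a median of 0.65.

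Without the 22 overlapping pairs, where reads from shared bases cannot be told apart, the partners were higher in 10 of 10 pairs of the microglia class. Their median log2 difference was 1.93. In the bulk brain class the partners were lower in 10 of 18 and higher in 6, with a median of -0.87. For members in both groups they were higher in 4 of 8 and lower in 2, with a median of 0.45. Over the 56 pairs with a tested partner, Pearson's r between the log2 differences of member and partner was 0.89 and Spearman's rho 0.79, as a description across gene pairs that come from the same 10 libraries; 45 pairs had the same sign. Over the 34 pairs with no overlap r was 0.87, and 25 had the same sign. The rule set the side of members of the microglia and bulk brain classes and left wide differences among them. The counts of partners by class, the correlations and the sign counts thus describe chosen genes and test nothing.

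**Figure D5:**
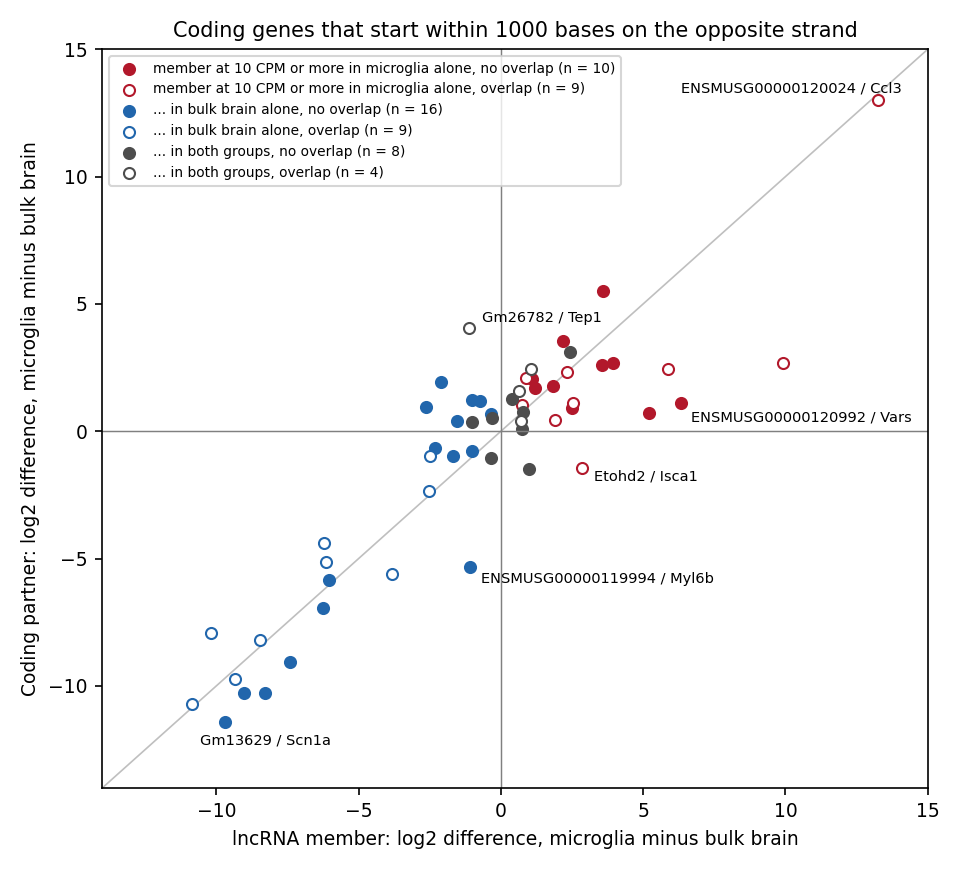
Log2 difference, microglia minus bulk brain, of 56 coding genes that start within 1000 bases of a member on the opposite strand (vertical axis) against that of the member (horizontal axis), by class of the member, with overlapping pairs marked apart. Both values have the same sign in 45 pairs, and the pairs of the bulk brain class with a partner that was higher lie in the upper left. The rule set the side of members of the microglia and bulk brain classes.

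Among these pairs, the sodium channel gene Scn1a, partner of Gm13629, stood at 0.0845 CPM in microglia and 266 in bulk brain (log2 difference -11.42). The vesicular GABA transporter gene Slc32a1, partner of Gm14204, stood at 0.0862 and 132 CPM (-10.28). On the other side, Pde3b, a phosphodiesterase gene that starts beside 4933406I18Rik, stood at 754 CPM in microglia and 18.9 in bulk brain (5.50), and Smad7, an inhibitor of TGF-beta signalling beside Gm20544, at 297 and 28.9 CPM (3.55). The members of these pairs lay on the same side as their partners. The pairs with the widest gaps between the log2 differences were of several kinds. Gm26782 was at 16.8, 22.8, 17.2, 17.4 and 23.8 CPM in microglia and at 38.1, 25.04, 58.2, 57.5 and 60.5 in bulk brain (log2 difference -1.11 with an SE of 0.24, edgeR adjusted p = 0.0011). Its partner Tep1, a telomerase-associated protein gene that it overlaps, was higher at 136 CPM in microglia and 9.31 in bulk brain (4.05, edgeR adjusted p = 5.7e-09), so this pair had opposite signs. ENSMUSG00000120992 stood at 111 to 123 CPM in microglia and 1.28 to 2.32 in bulk brain, beside the valyl-tRNA synthetase gene Vars at 112 and 59.0 CPM (1.12, edgeR adjusted p = 1.5e-05). Gm17705 stood at 24.4 to 29.3 CPM in microglia and 0.348 to 1.25 in bulk brain, beside Prrc2a at 562 and 387 CPM (0.72, edgeR adjusted p = 2.2e-04). In both pairs the partner differed far less than the member.

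The pairs with the narrowest gaps differed by nearly the same amount. Gm11696 was at 12.6 to 15.3 CPM in microglia and 2.66 to 3.60 in bulk brain, and the G protein subunit gene Gna13, which it overlaps, at 296 and 66.6 CPM (2.33, edgeR adjusted p = 6.9e-09). Gm2415 was at 1.15 to 2.40 CPM in microglia and 9.71 to 15.04 in bulk brain, and Ctdspl, a phosphatase gene that it overlaps, at 4.93 and 28.8 CPM (-2.36, edgeR adjusted p = 5.6e-09). ENSMUSG00000120224 was at 15.4 to 19.2 CPM in microglia and 3.20 to 8.54 in bulk brain, and Tbc1d22a, which starts 49 bases away with no overlap, at 94.3 and 30.9 CPM (1.79, edgeR adjusted p = 1.1e-08). A230056P14Rik overlaps Nipa1 on the opposite strand, a gene that was lower at 8.46 CPM in microglia and 51.5 in bulk brain (-2.42). Reads from bases that these overlapping genes share cannot be told apart. A230056P14Rik had the opposite sign to its divergent partner, at 3.84 CPM in microglia and 18.6 in bulk brain. That partner, the magnesium transporter gene Nipa2, was higher at 83.6 and 25.1 CPM (1.92). Etohd2 went the other way, at 15.8 CPM in microglia and 2.49 in bulk brain, opposite Isca1, an iron-sulfur assembly gene that was lower at 53.9 and 166 CPM (-1.44, edgeR adjusted p = 1.8e-06); it is the 1 pair of the microglia class with a lower partner, and it also overlaps Tut7, an RNA uridylation gene that was higher.

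Of 15 listed genes known to be widely expressed and annotated as autosomal lncRNA, 10 were members and 8 of these were in both groups. Of the 8, 3 were higher, 4 lower and 1, Zfas1, not called. Of the 7481 genes at that level in both groups, 47.0% were higher and 29.7% lower (76.7% together). With 8 genes the list's counts are not set apart from that background. Norad (ENSMUSG00000102869, chromosome 2, 156229980 to 156234921, minus strand), which binds Pumilio proteins and guards chromosome stability, was at 181, 178, 190.3, 179.9 and 171 CPM in microglia, against 1388, 1259, 1284, 1317 and 1260.3 CPM in bulk brain. It had the lowest log2 difference of the 46 members in both groups, at -2.67 ± 0.08 (SE, edgeR adjusted p = 6.1e-11), and its bulk brain replicates 1 and 2 did not stand apart. Oip5os1, also called Cyrano, which triggers the decay of miR-7, was at 191, 216, 192, 207 and 199 CPM in microglia and at 462, 332, 826, 826 and 795 in bulk brain. It was lower in every microglia library (log2 difference -1.51 with an SE of 0.24, edgeR adjusted p = 1.0e-04), though bulk brain replicates 1 and 2 lay well below the other tissue libraries. Pvt1, a neighbour of the Myc gene, was at 14.4 to 16.5 CPM in microglia and 11.4 to 14.5 in bulk brain, with a small difference that passed (0.43 ± 0.12 SE, edgeR adjusted p = 0.0051) and was lost with library size, median-of-ratios factors, no filter or without bulk brain replicate 1.

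The members in both groups with the greatest rise in microglia were Chaserr, Gm33989 and Brip1os. Chaserr (chromosome 7, 73189549 to 73208143, minus strand), which restrains the chromatin remodeller gene Chd2 in cis, was at 103, 108, 99.7, 105 and 109 CPM in microglia, against 23.7, 24.6, 18.96, 18.5 and 16.6 CPM in bulk brain (log2 difference 2.54 with an SE of 0.12, edgeR adjusted p = 2.2e-09). Chd2 itself, which overlaps it on the same strand, was higher too, at 171 CPM in microglia and 77.0 in bulk brain (1.34, edgeR adjusted p = 7.7e-05). Brip1os, which starts 118 bases from the DNA repair helicase gene Brip1 and overlaps the Mediator gene Med13 on the opposite strand, was at 77.2, 80.6, 84.9, 90.6 and 75.9 CPM in microglia and at 18.7, 12.4, 21.0, 17.4 and 16.6 in bulk brain (2.43 ± 0.14 SE, edgeR adjusted p = 1.1e-08). Neither RNA's groups overlapped. Gm33989 was at 194 to 212 CPM in microglia and at 26.3, 21.2, 52.6, 56.3 and 51.5 in bulk brain (2.47 ± 0.26 SE, edgeR adjusted p = 3.5e-06), with bulk brain replicates 1 and 2 the lowest. Gm12940, which overlaps the paraspeckle protein gene Sfpq on the same strand, was at 61.6 ± 7.80 CPM in microglia and 18.1 ± 2.47 in bulk brain (n = 5 each, SD).

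Of the 46 members in both groups, 10 did not pass the threshold, and Rab10os, 4933439C10Rik and Gm49654 had the log2 differences nearest 0. Rab10os was at 46.6, 50.04, 48.0, 46.6 and 48.1 CPM in microglia and at 65.0, 54.9, 57.5, 56.5 and 58.3 in bulk brain, with a log2 difference of -0.10 ± 0.08 (SE, edgeR adjusted p = 0.26). The CPM levels did not overlap although the scaled difference did not pass, and 8 of the other settings called it lower. 4933439C10Rik was at 11.4 to 13.6 CPM in microglia and 11.0 to 20.1 in bulk brain (0.03 ± 0.17 SE, edgeR adjusted p = 0.90), and its sign changed with the scaling. ENSMUSG00000120081 was at 11.9, 13.4, 12.6, 12.3 and 11.8 CPM in microglia and at 1.20, 0.459, 17.6, 19.1 and 17.6 in bulk brain. Its microglia level thus lay between the 2 sets of tissue libraries. Its log2 difference was 0.32 ± 0.75 (SE, edgeR adjusted p = 0.70), with a range of -0.54 to 1.54 over the settings. The lowest came from bulk brain replicates 3 to 5 alone, where it was called lower (adjusted p = 1.5e-04). Gm49654 had a like order, at 15.7 to 19.7 CPM in microglia and at 12.8, 3.36, 31.4, 26.8 and 28.1 in bulk brain (-0.07 ± 0.44 SE, edgeR adjusted p = 0.89). Against bulk brain replicates 3 to 5 alone it was lower, at -0.72 (adjusted p = 1.2e-05). Gm21781 was at 18.4 to 23.3 CPM in microglia and at 16.4, 15.2, 25.1, 24.9 and 22.6 in bulk brain (0.16 ± 0.17 SE, edgeR adjusted p = 0.40), and its direction turned against replicates 3 to 5 alone, to -0.22 (adjusted p = 0.045). A call near 0 thus depended on the tissue libraries used for these 3 genes.

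The spread between libraries was larger in bulk brain. The median coefficient of variation of a member was 10.8% over the microglia libraries and 20.01% over the bulk brain libraries, and 5.78% over bulk brain replicates 3 to 5. Of the 46 members in both groups, bulk brain replicates 1 and 2 both lay above replicates 3 to 5 in 16 and below them in 18. Gt(ROSA)26Sor, the transcript of the locus used for knock-in alleles, was among the genes with higher values there, at 24.4 to 29.0 CPM in microglia and 20.2, 25.7, 15.5, 12.7 and 15.4 in bulk brain (log2 difference 0.76 with an SE of 0.18, edgeR adjusted p = 0.0018); its divergent partner Setd5, a chromatin gene 32 bases away, had the same difference of 0.76 ± 0.22 (edgeR adjusted p = 0.0066).

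Promoter windows were available for 117 of the 247 members, in 138 windows of 250 bases before to 50 after the start (RefSeq, GRCm38.p6). The median count of CpG per window was 18 for members in both groups, 9 for the microglia class, 12 for the bulk brain class, 25 for snoRNA hosts and 7 for all promoters. A window of a host from each list is given with motif matches in capitals: in Snhg15 the cyclic AMP response element TGACGTCA, and in Dleu2 the TATA box TATAAA and, on the other strand, the PU.1-type motif GAGGAAGT, named for a transcription factor of myeloid cells.
Snhg15 (chr11:6528711-6529010, minus strand): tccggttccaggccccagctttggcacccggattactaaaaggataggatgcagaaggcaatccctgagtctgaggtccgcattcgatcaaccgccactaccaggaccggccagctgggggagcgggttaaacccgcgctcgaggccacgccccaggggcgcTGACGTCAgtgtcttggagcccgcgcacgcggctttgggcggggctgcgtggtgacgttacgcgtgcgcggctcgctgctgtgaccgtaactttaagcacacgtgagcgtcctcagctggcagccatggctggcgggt
Dleu2 (chr14:61682324-61682623, minus strand): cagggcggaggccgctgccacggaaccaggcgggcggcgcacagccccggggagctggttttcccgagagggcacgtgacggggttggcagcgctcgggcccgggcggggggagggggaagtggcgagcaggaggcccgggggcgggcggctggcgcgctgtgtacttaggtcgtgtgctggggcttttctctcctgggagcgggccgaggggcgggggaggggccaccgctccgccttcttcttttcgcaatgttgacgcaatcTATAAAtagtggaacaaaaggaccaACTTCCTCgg

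Both strands were searched. GAGGAAGT was present in 3 of 50 windows of the microglia class (6%), 2 of 59 of the bulk brain class (3.39%), 0 of 29 of members in both groups and 3.20% of all windows. TGACGTCA was present in 4%, 5.08% and 6.90% of the windows of these classes, and in 1.79% of all windows. The AP-1 motif TGANTCA, the letters bound by early response factors, was present in 4% of the windows of the microglia class, 1.69% of the bulk brain class, 0 of 29 in both groups and 7.81% of all windows. TATAAA was present in 14% of the windows of the microglia class, 8.47% of the bulk brain class, 3.45% of members in both groups and 13.6% of all windows. A match describes letters alone, and the windows of the members are few.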

How the data were processed

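Poly-A RNA of 5 microglia and 5 bulk brain samples was sequenced. The protocol in the labels names oligo-dT beads and second-strand synthesis with dTTP, so strand was not marked. Reads from bases that overlapping genes share thus cannot be told apart. Overlap was taken from whole gene spans, which does not show that counted reads were shared. The authors deposited a table of raw read counts per gene (no normalization), with gene coordinates and biotypes; CASAVA, HISAT2 2.2.1, featureCounts 2.0 and the GRCm39 (mm39) build are named in the submitters' processing notes. How featureCounts was set for strand and for multi-mapped reads, and which annotation was used, is not given in the sources here, and genes with near-identical copies are uncertain. No column lacked a sample, the labels give 1 batch value, and no row lacks a gene identifier.

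CPM are counts per 1000000 of the column total, and RPKM are CPM per kilobase of the deposited gene length. All 56748 genes entered edgeR 4.0.16 in R 4.3.3 (filterByExpr, trimmed-mean scaling, quasi-likelihood test); 18969 passed the filter on low counts, among them all 247 members. P-values were adjusted over all genes tested, with a threshold of 0.05, and are given for members in both groups and for coding neighbours alone. An SE was taken as the absolute log2 difference over the square root of F. The fit was tested on simulated counts. The share of lncRNA counts was compared by an exact permutation test in SciPy 1.17.1. Where a group had 0 counts its floor was 3 counts in all; floors and exact 95% Poisson intervals cover counting error only. Sequences came from RefSeq tables of GRCm38.p6, matched by symbol and chromosome, and gene coordinates from the deposited table (GRCm39). The miRNA sequences matched 54 of the 64 miRNA genes within members; those of miR-124 were not matched.

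Members and lists were chosen with earlier results of these data known. The genes named are a chosen list, the 10 highest mean CPM in each group, the 6 largest log2 differences in each direction, the 3 members in both groups nearest 0, those beside the minimum, and the 4 largest and 4 smallest gaps among divergent pairs; other genes named are of the gene lists or were chosen after their values were seen. Of the genes this rule names, 1 is not reported here. No pair of replicates agreed within sampling noise (lowest chi-square per degree of freedom 5.45). Alternatives were median-of-ratios factors, library size alone, DESeq2 1.42.0, limma-voom (limma 3.58.1), no filter, minimums of 5 and 20 CPM, a replicate block, leaving out each library, and bulk brain replicates 3 to 5 alone.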

Additional observations from a re-analysis of the deposited data

Results flagged for a closer look

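In these groups of 5 libraries 1 library stood far from the others, by its gap over the range of the group; chance flags about 1 in 20 groups. In microglia, AU020206 was at 361 CPM in replicate 5, against 309 to 312 CPM in the other 4. ENSMUSG00000121179 was at 1.32 CPM in microglia replicate 5, against 0.0351 to 0.288 CPM. Gm30329, of the microglia class, was at 39.0 CPM in replicate 4, against 44.0 to 45.8 CPM. Mirg was at 0.15 CPM in microglia replicate 1 and at 0 in the others, and any gene counted in 1 library alone is flagged by construction. In bulk brain, replicate 2 was the library apart in 3 genes: Pantr1 at 45.8 CPM, against 17.5 to 25.5 CPM, Peg13 at 223 CPM, against 275 to 295 CPM, and Rian at 522 CPM, against 626 to 647 CPM.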

How the results depend on the processing

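The minimum set the number of members, at 488 with 5 CPM and 126 with 20 CPM, and at 245 to 250 when single libraries were left out. Of the members in both groups, 55 were higher and 27 lower with 5 CPM (of 118), and 7 were higher and 5 lower with 20 CPM (of 14). Without lncRNA genes that overlap a coding gene, an alternative chosen after seeing the data, 14 were higher and 9 lower (of 29). These alternatives test fewer or more genes by construction. Of all 7481 genes at 10 CPM or more in both groups, 47.0% were higher and 29.7% lower. The shares over all genes at 5 and 20 CPM are not given here. Leaving out single libraries gave 18 to 22 higher and 13 to 18 lower, and the other settings 19 to 23 higher and 14 to 21 lower, with 19 and 18 under no filter, 20 and 18 under DESeq2, 23 and 15 under limma-voom and 23 and 21 against bulk brain replicates 3 to 5 alone. Over all genes tested, 7518 were higher and 12197 lower of 36812 under no filter, and 6603 and 8971 of 18969 under DESeq2. They were 7234 and 8219 of 18969 under limma-voom, and 7621 and 9534 of 20098 against bulk brain replicates 3 to 5 alone. The share of lncRNA counts stayed lower in microglia, at -0.35 to -0.26 percentage points without single libraries (exact permutation p = 0.016, the smallest 5 against 4 allow) and -0.42 against bulk brain replicates 3 to 5 (p = 0.036, the smallest 5 against 3 allow). Divergent partners were higher in 29 to 32 pairs and lower in 22 to 23 without single libraries, and in 38 and 28 within 5000 bases. With the replicate block, 23 members in both groups were higher and 14 lower and the partners were 32 higher and 22 lower; same-numbered libraries did not deviate together (correlations of -0.021 to 0.010, none with its own number as best match), so the numbers do not pair the samples. The sign turned for 4933439C10Rik, at -0.14 under DESeq2 and under median-of-ratios factors, -0.16 under library size, -0.15 under no filter, and -0.15 to 0.073 without single libraries, where it was below 0 without bulk brain replicates 1, 3, 4 or 5, and for Gm49654, at 0.33 under limma-voom and 0.22 with the replicate block. It also turned for Gm21781, at -0.22 against bulk brain replicates 3 to 5 alone and between -0.074 and -0.011 under 6 other settings, for ENSMUSG00000120081, at -0.54 against replicates 3 to 5 alone, -0.12 without bulk brain replicate 1 and -0.14 without replicate 2, and for Snhg20, at 0.47 against replicates 3 to 5 alone, 0.11 without bulk brain replicate 2 and 0.0036 with the block. These were the 5 of the 46 members whose sign turned, and the cause was not tested. Zfas1 passed the threshold under limma-voom (0.75, adjusted p = 0.030), the block (0.77, 0.019) and without bulk brain replicate 2 (0.79, 0.0070). Calls of members in both groups were lost in some settings for ENSMUSG00000121095, 5031425E22Rik, Pvt1, B230354K17Rik and Gm20186. Depth limits statements on members at 0 counts, where a group allows up to 0.0223 CPM in microglia and 0.0189 in bulk brain.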
